A study of Mus musculus with 13 samples.

Results

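The 28 genes described here encode proteins of the small subunit of the cytosolic ribosome: Rpsa, Rps2, Rps3, Rps3a1, Rps4x, Rps6, Rps7, Rps9, Rps10, Rps12, Rps13, Rps14, Rps15, Rps15a, Rps16, Rps18, Rps19, Rps20, Rps21, Rps23, Rps24, Rps25, Rps26, Rps27, Rps27a, Rps28, Rps29 and Fau. They were chosen by name, as the rows of the expression table whose mouse identifiers carry these protein-coding symbols, with pseudogenes left out. They are 28 of 22656 genes in the table, and the list does not hold every gene of the subunit. The RNA came from B16F10-TR-shApoe cells, a mouse melanoma line in which a hairpin RNA targets Apoe, in both groups. Into the tail veins of knock-in mice, 100000 of these cells were injected in PBS. The mice carried either APOE2 (8 libraries) or APOE3 (5 libraries), which are alleles of the human gene for apolipoprotein E, and tumour cells were recovered from the lungs on day 15. Digested lung was sorted for cells low in the dye TO-PRO-3, negative for the leukocyte antigen CD45 and positive for GFP. The genotype is that of the host, and the tumour cells of both groups are of 1 line. The labels give no age, sex or batch, and do not say whether each library came from its own mouse, so p-values measure the spread between libraries.

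The small subunit binds messenger RNA, scans for the start codon and holds the decoding centre, where codon and transfer RNA are paired. It is built on a single ribosomal RNA and a set of proteins that sit on its head, body and platform, and nearly all of them are present as a single copy in each subunit. Their messenger RNAs are short and abundant, and begin with a C followed by a run of pyrimidines, the 5′ terminal oligopyrimidine motif, through which growth signals acting by mTOR and LARP1 set their translation. Growing tumour cells are known for high levels of these transcripts.

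The pyrimidine run is the feature the genes are best known to share, so annotated transcript starts are shown for the 3 genes that rose, for a pair that sat at the low end and for Fau. The bases are from RefSeq (GRCm38.p6), 5′ to 3′ on the strand of the gene, from 10 bases before the annotated start to 20 bases from it on. Capitals mark the run, which begins with a C within 5 bases of the start and holds at least 5 letters, all C or T.
Rps23 (chr13:90923112-90923141, plus strand): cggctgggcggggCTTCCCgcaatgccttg
Rps27 (chr3:90213629-90213658, minus strand): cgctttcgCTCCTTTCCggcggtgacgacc
Rps21 (chr2:180257369-180257398, plus strand): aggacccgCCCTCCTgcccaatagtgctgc
Rps10 (chr17:27635225-27635254, minus strand): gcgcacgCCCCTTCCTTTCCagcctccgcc
Rps25 (chr9:44407704-44407733, plus strand): ccgacatcttagcgaggctgctgtggtcta
Fau (chr19:6057937-6057966, plus strand): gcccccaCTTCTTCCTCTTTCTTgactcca
The longest of these runs, 16 letters, was that of Fau, and the run of Rps10 held 13 letters. The entry of Rps25 had no run at the annotated start. Of the 28 genes, 24 were found in the RefSeq table, and the other 4 were Rps14, Rps20, Rps27a and Rps29. A run was present in 12 of the 24 genes, against 19.7% of all 27025 genes in that table. Runs that begin outside the window were not counted, as in Rps12, so these shares depend on how exact the annotated starts are. In the 12 genes with a run the median log2 difference between APOE2 and APOE3 was 0.29, and in the 12 without it was 0.20. The letters CCGGAAG, a core read by ETS factors, stood on either strand within 250 bases before to 50 bases after the start in 39.3% of the 28 promoters listed for these 24 genes and in 8.86% of all 32851 promoters. Rps21 held them upstream of its run, as capitals mark in this longer stretch.
Rps21 (chr2:180257319-180257398, plus strand): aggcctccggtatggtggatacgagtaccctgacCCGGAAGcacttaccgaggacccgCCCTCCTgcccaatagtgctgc
The letters GGGCGG, of the GC box, occurred on either strand in 57.1% of the 28 promoters and 35.7% of all. For AAGATGG, read by YY1, the shares were 21.4% and 6.34%, and for TATAAA, of the TATA box, 7.14% and 13.6%. GGGCGG and AAGATGG can share letters with CCGGAAG at its ends and were searched separately. Matches of letters describe these windows only.

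The values are read counts divided by a size factor for each library, called normalised counts below. They come from a kit that reads the end of each polyadenylated transcript next to its tail, so length does not enter, and levels are not compared between genes. Libraries held 7080308 to 13039989 reads. Differences are given as log2 fold change, APOE2 minus APOE3, on log2(normalised count + 1), with positive values higher in APOE2 hosts, and were tested with limma over all 12403 genes with a mean of at least 10. A gene was called where the p-value, adjusted over those genes by Benjamini-Hochberg, was under 0.05. All 28 small-subunit genes entered the test. The smallest number of reads behind any of their values was 147 (Rps10), and 26 of the 28 had over 1000 reads in every library. All 8 melanocyte markers had reads in every library, with a higher mean in APOE2 for 5 of the 8. Their sum was 36116 to 51989.8 of 1000000 counts in APOE2 and 26904 to 38448 in APOE3. It was mostly Dct, with means of 232522 normalised counts in APOE2 and 150389 in APOE3. Tyr, Mitf and Sox10 had lower means in APOE2. Markers of other cells of the lung were present at lower levels. The lung-epithelium list of 15 genes summed to 77.3 to 487 of 1000000 counts in APOE2 and to 423 to 2574 in APOE3, and 12 of its 15 genes had a lower mean in APOE2, with 5 at 0 in at least 1 library. The endothelial list, at 88.3 to 137 and 132 to 272, was lower in APOE2 for 13 of 13 genes, the fibroblast and smooth muscle list, at 18.2 to 58.3 and 37.1 to 238, for 12 of 12, and the leukocyte list, at 59.5 to 302 and 262 to 1493, for 11 of 14. The leukocyte sum was mostly Lyz2, with means of 1162 normalised counts in APOE2 and 5288 in APOE3. The next largest was S100a8, at 122 and 118, and Itgam, S100a8 and S100a9 had higher means in APOE2. Because it rests mostly on Lyz2, the leukocyte sum is not read as a level of leukocytes. Ptprc, which encodes CD45, had means of 6.90 and 14.0 normalised counts. Fewer cells of a type and less RNA per cell cannot be told apart in such bulk samples, and the part of these other cells in the results below was not tested beyond a fit with the epithelial markers as a covariate. Apoe, the target of the hairpin, had 1730.1 ± 375 normalised counts in APOE2 (SD, n = 8) and 1845 ± 441 in APOE3 (SD, n = 5), and was not called (log2 fold change −0.088 ± 0.16 (SE), limma adjusted p = 0.852).

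The small-subunit genes leaned towards higher levels in APOE2 hosts, and 3 of the 28 rose: Rps23, Rps27 and Rps21. Among all genes tested, 0.411% were called higher, and 0.379% lower. None of the 28 was called lower by limma (0 at an unadjusted p under 0.05 as well, against 6.71% of all genes, and 0 by edgeR or DESeq2 on recovered reads). At an unadjusted p under 0.05, 14 were higher, against 7.51% of all genes. The same 3 genes were called by edgeR (0.492% of all genes called higher), and DESeq2 called 7 (1.23%), adding Rps16, Rps27a, Rps28 and Rps29. The log2 fold change was above 0 in 23 of the 28, against 50.1% of all genes. The count was 21 when libraries were scaled to equal totals and 25 with TMM scaling. The median over the 28 was 0.29, with quartiles of 0.052 and 0.48, while the median over all genes was 0.00037, with quartiles of −0.21 and 0.22. In 0 of the 28 did every APOE2 library lie above every APOE3 library (0.476% of all genes), and in 0 did every APOE2 library lie below (0.508%), so all 28 overlapped between the groups. In 14 of the 28, all 8 APOE2 libraries were above the APOE3 mean of log2 values, as in 9.61% of all genes. Over the whole table the calls were 51 higher and 47 lower, and 38 and 54 with equal totals.

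**Figure D1:**
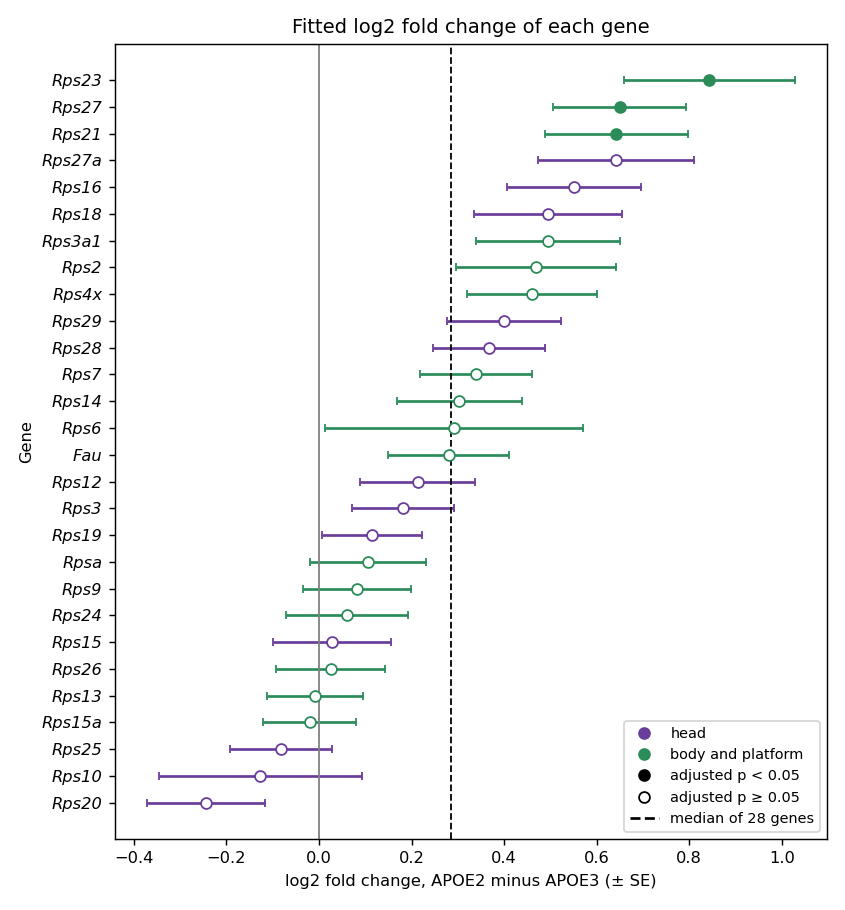
Log2 fold change (APOE2 minus APOE3, horizontal axis, with SE bars from limma) of the 28 small-subunit genes, ordered from highest to lowest; filled points have an adjusted p under 0.05, and colours separate proteins of the head from those of the body and platform. Rps23, Rps27 and Rps21 are filled, 23 points lie right of 0, and the dashed line marks the median of 0.29.

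The genes did not move evenly through the libraries. For each library the median over the 28 genes of the deviation from the gene's own mean (log2) was taken. It was 0.34, 0.29, −0.043, −0.12, 0.21, −0.14, 0.099 and 0.14 in APOE2 replicates 1 to 8. It was 0.0060, −0.32, −0.30, −0.11 and −0.12 in APOE3 replicates 1 to 5. APOE2 replicates 1, 2 and 5 were the highest and APOE3 replicates 2 and 3 the lowest, while APOE2 replicates 4 and 6 lay below APOE3 replicates 1, 4 and 5, so that the groups overlapped. The sum of the melanocyte markers, mostly Dct, was also highest in APOE2 replicates 1, 5 and 2. Among the APOE3 libraries it was highest in replicate 2, and its part in the result was not tested. As a share of all normalised counts, the 28 genes made up 2.70% to 3.65% in APOE2 and 2.34% to 2.92% in APOE3.

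**Figure D2:**
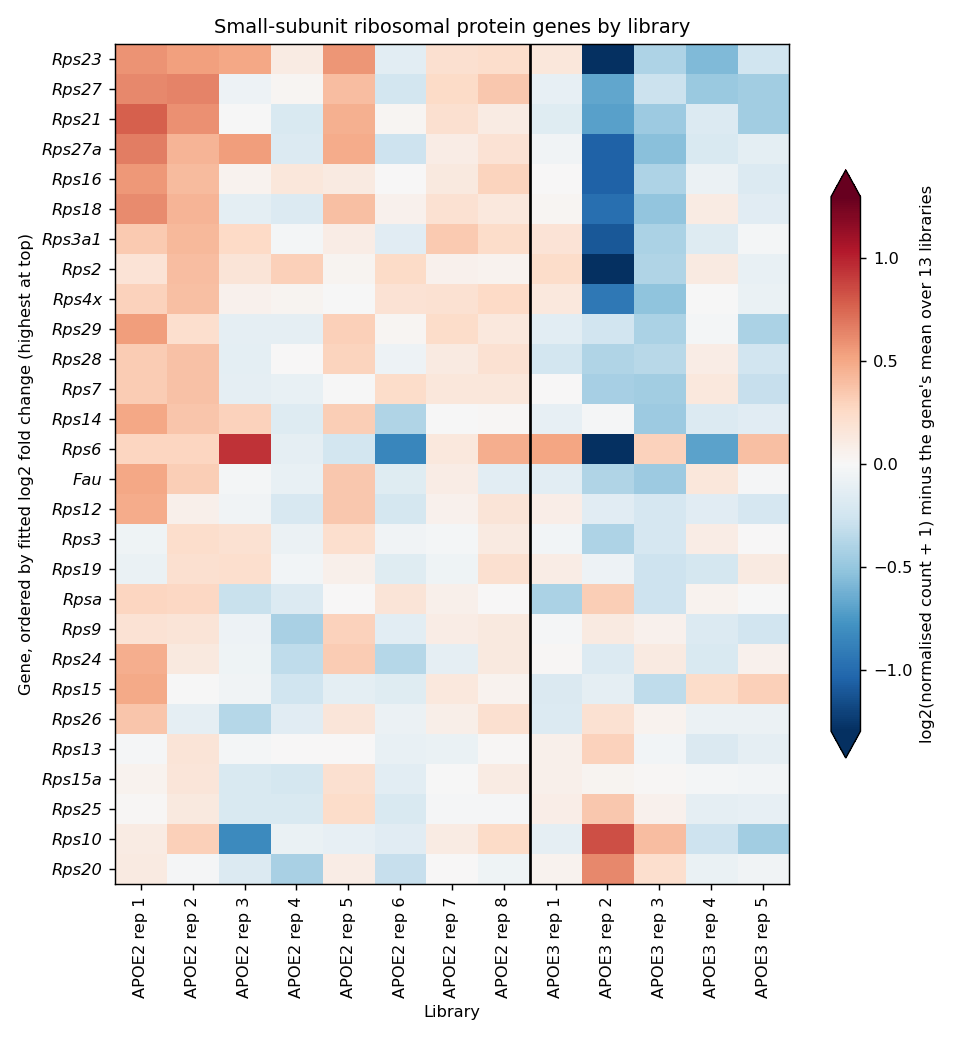
Colour gives the log2 value of each small-subunit gene (rows, ordered by fold change) in each library (columns, the 8 APOE2 libraries left of the line and the 5 APOE3 libraries right of it) minus the mean of the gene over 13 libraries. APOE3 replicate 2 holds the lowest value of 12 genes and the highest of 5.

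APOE3 replicate 2 stood apart within the group of genes. It had the lowest value of any library for 12 of the 28 and the highest for 5, namely Rpsa, Rps10, Rps13, Rps20 and Rps25. APOE3 replicate 3 was lowest for 6. The highest value was that of APOE2 replicate 1 for 12 genes and of APOE2 replicate 2 for 7. These APOE3 libraries also had the largest shares of Gm42418, a transcript that overlaps a copy of the ribosomal RNA gene, with 3.74% and 3.03% of counts in replicates 2 and 3. Its share was 0.662% to 2.17% in APOE2 and 1.11% to 1.26% in the other 3 APOE3 libraries. The 2.17% was that of APOE2 replicate 7, whose median over the 28 genes was 0.099. In APOE2 replicate 4, at 1.49%, that median was −0.12, and in APOE2 replicate 6, at 0.877%, it was −0.14. Gm42418 itself was not called (log2 fold change −0.85 ± 0.30 (SE), limma adjusted p = 0.193). Without APOE3 replicates 2 and 3 the median over the 28 genes was 0.17, with 25 above 0, and 0 were called (1 of 12380 genes was called in that fit, at 3 against 8 libraries). With the log2 level of Gm42418 as a covariate the median was 0.16 and 0 were called, and 2 genes were called in the whole table. With the lung-epithelium marker level as a covariate it was 0.31 and 0 were called, and 1 gene was called in the whole table. The marker sums overlapped little between the groups, at 77.3 to 487 of 1000000 counts in APOE2 and 423 to 2574 in APOE3. That fit therefore separates genotype from marker level poorly.

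**Figure D3:**
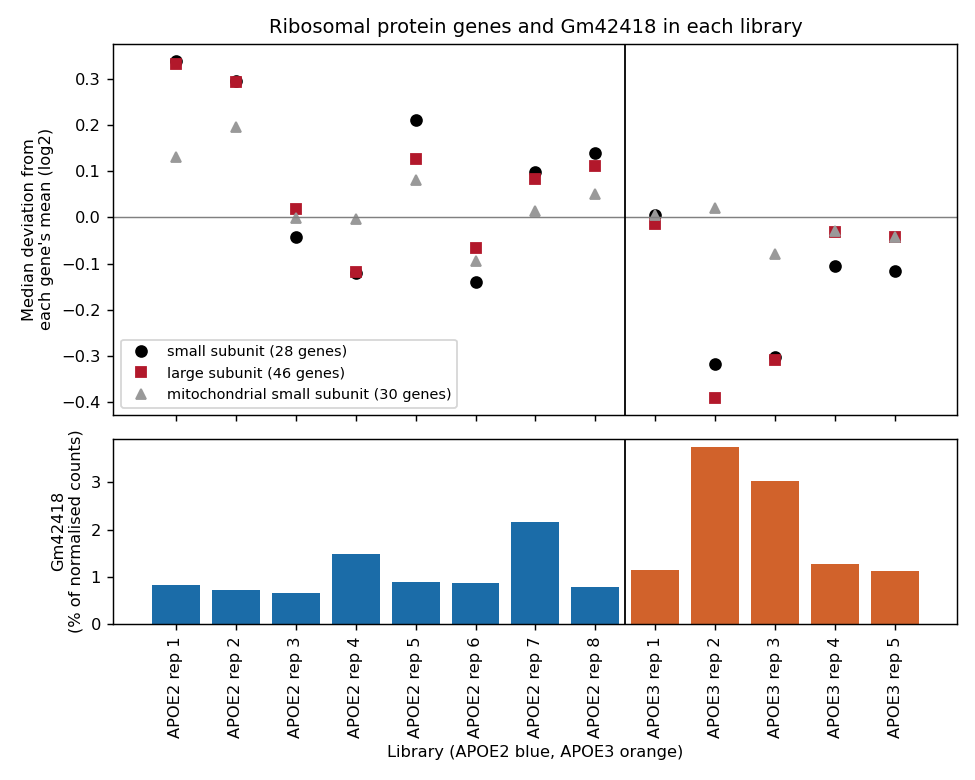
Upper panel: median deviation (log2) of small-subunit, large-subunit and mitochondrial small-subunit genes in each library. Lower panel: Gm42418 as a percentage of normalised counts, with APOE2 in blue and APOE3 in orange. The small- and large-subunit medians sit close together in every library and are lowest in APOE3 replicates 2 and 3, where Gm42418 reaches 3.74% and 3.03%. In APOE2 replicate 7 Gm42418 is 2.17%, with a small-subunit median of 0.099.

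Rps23 (ENSMUSG00000049517, chr13:90922958-90924950 on GRCm38, plus strand) encodes a protein of the decoding centre that bears on the accuracy of translation. In APOE2 its normalised counts had a lowest, median and highest value of 3936, 5592 and 6493. In APOE3 replicates 1 to 5 it had 4783, 1524, 3273, 2898 and 3611. Thus 6 of the 8 APOE2 libraries exceeded the highest APOE3 library, and APOE3 replicate 2 was far the lowest. The means were 5491 ± 959 (SD, n = 8) and 3218 ± 1181 (SD, n = 5). The gene was 1.79-fold higher in APOE2 (log2 fold change 0.84 ± 0.19 (SE), limma adjusted p = 0.0301). Without APOE3 replicate 2 the log2 fold change was 0.60 (limma adjusted p = 0.0383), and without replicates 2 and 3 it was 0.55 and no longer called (limma adjusted p = 0.123). The call also ended with robust variance estimates in limma (adjusted p = 0.0667). When each library was left out in turn, Rps23 was called in 6 of 13 fits, and the call ended without APOE2 replicate 1, 2, 3, 5 or 7, or APOE3 replicate 3 or 4 (log2 fold changes of 0.81 to 0.87, limma adjusted p of 0.0501 to 0.0802).

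Rps27 (ENSMUSG00000090733, chr3:90212522-90213651, minus strand) encodes a zinc-finger protein of the platform. Its lowest, median and highest normalised counts in APOE2 were 12185, 17627 and 22434, and the APOE3 replicates had 13271, 8982, 11823, 10231 and 10515. APOE2 replicate 6 alone fell below the highest APOE3 library. The means were 17415 ± 3768 (SD, n = 8) and 10964 ± 1638 (SD, n = 5). The fold fitted on log2 values was 1.57, higher in APOE2 (log2 fold change 0.65 ± 0.14 (SE), limma adjusted p = 0.0309). Among the 3 genes it depended least on the low APOE3 libraries: without replicates 2 and 3 its log2 fold change was 0.60 (limma adjusted p = 0.108). When each library was left out in turn, Rps27 was called in 4 of 13 fits, and the call ended without APOE2 replicate 1, 2, 5, 7 or 8, or APOE3 replicate 2, 3, 4 or 5 (log2 fold changes of 0.58 to 0.68, limma adjusted p of 0.0501 to 0.0853).

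Rps21 (ENSMUSG00000039001, chr2:180257377-180258445, plus strand) encodes a small protein on the solvent side of the body that contacts Rpsa. In APOE2 the lowest, median and highest normalised counts were 27829, 35609.8 and 54657, against 28614, 19467, 22895, 28118 and 23285 in APOE3 replicates 1 to 5. Here too 7 of 8 APOE2 libraries exceeded every APOE3 library. The means were 38725 ± 9237 (SD, n = 8) and 24476 ± 3853 (SD, n = 5). The fold fitted on log2 values was 1.56, higher in APOE2 (log2 fold change 0.64 ± 0.15 (SE), limma adjusted p = 0.0456). Without APOE3 replicates 2 and 3 the log2 fold change was 0.51 (limma adjusted p = 0.211). The call of Rps21 also ended with a pseudocount of 0.5 (limma adjusted p = 0.0501) and with equal library totals (limma adjusted p = 0.0608), and it was made in 4 of 13 fits when each library was left out in turn, ending without APOE2 replicate 1, 2, 5, 7 or 8, or APOE3 replicate 2, 3, 4 or 5 (log2 fold changes of 0.56 to 0.70, limma adjusted p of 0.0681 to 0.122).

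**Figure D4:**
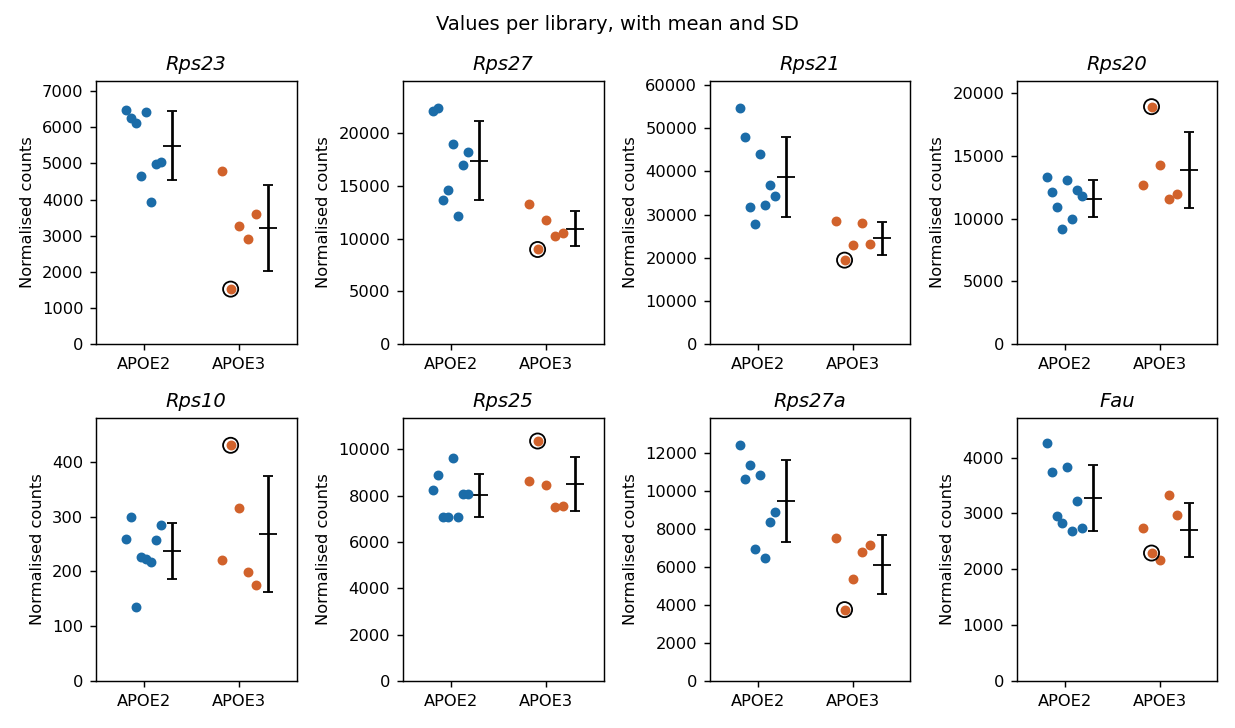
Normalised counts (vertical axes, from 0) of 8 small-subunit genes in each APOE2 library (blue) and APOE3 library (orange), with mean and SD in black; the ring marks APOE3 replicate 2. The ringed library is the lowest for Rps23, Rps27, Rps21 and Rps27a and the highest for Rps20, Rps10 and Rps25.

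A pair of the genes encode fusions, in which a ubiquitin-like protein is cut from the ribosomal protein after translation. Rps27a, a fusion of ubiquitin with a protein of the beak of the head, had 6459, 9753 and 12398 as lowest, median and highest normalised counts in APOE2. In APOE3 it had 7546, 3754, 5361, 6792 and 7145. The lowest APOE2 libraries, replicates 4 and 6, lay within the APOE3 range. Its log2 fold change of 0.64 ± 0.17 (SE) was close to that of Rps21 but missed the threshold (limma adjusted p = 0.0696), while DESeq2 called it (adjusted p = 0.0118). Fau, a fusion of the ubiquitin-like protein FUBI with a protein of the shoulder, had 2694, 3083 and 4259.9 in APOE2 and 2739, 2290.3, 2164, 3329.6 and 2980.3 in APOE3. Its log2 fold change of 0.28 ± 0.13 (SE) was near the median of the 28 and was not called (limma adjusted p = 0.336).

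Of the 12 genes for proteins of the head, 9 had a log2 fold change above 0, 0 were called and the median was 0.20. At an unadjusted p under 0.05 in limma 5 were higher and 0 lower, against 7.51% and 6.71% of all genes. EdgeR called 0 and DESeq2 called 4 higher. Rps16, whose tail reaches the peptidyl transfer RNA, had 7568 ± 1061 and 5286 ± 1341 normalised counts (SD) and a log2 fold change of 0.55 ± 0.14 (SE) (limma adjusted p = 0.0696). In it, 7 of 8 APOE2 libraries were above the highest APOE3 library. Rps18, which takes part in a bridge to the large subunit, had 0.50, Rps29, a zinc-binding protein, 0.40, and Rps28, near the messenger RNA exit, 0.37 as log2 fold changes. Without APOE3 replicate 2 these were 0.33, 0.40 and 0.33. Rps12, a protein of the beak, had 0.21, Rps3, which lines the entry of the messenger RNA channel, 0.18, Rps19, the gene most often mutated in Diamond-Blackfan anaemia, 0.11, and Rps15 0.028. Limma adjusted p-values of Rps18 and the 6 genes named after it ran from 0.135 to 0.948.

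The 3 lowest log2 fold changes of all 28 belonged to genes of the head. Rps20, a protein that is ubiquitinated when ribosomes stall, had 9151, 11999 and 13354 as lowest, median and highest normalised counts in APOE2. In APOE3 it had 12708, 18922, 14264, 11537 and 11930.4. Each APOE2 library was under the APOE3 mean of log2 values, 3 of them were below every APOE3 library, and APOE3 replicate 2 was the highest of all. The log2 fold change of −0.24 ± 0.13 (SE) was not called (limma adjusted p = 0.389), and was −0.13 without that library. Rps10, ubiquitinated on stalled ribosomes as well, had 135, 242 and 299 in APOE2 and 221, 430.5, 316, 199 and 175 in APOE3. The fitted difference on the log2 scale, −0.13 ± 0.22 (SE), was not called (limma adjusted p = 0.840), and turned to 0.064 without APOE3 replicate 2. Rps25, on which some viral internal ribosome entry sites depend, had 7078, 8071 and 9614 in APOE2 and 8623, 10353, 8471, 7496 and 7549 in APOE3. On the log2 scale Rps25 differed by −0.082 ± 0.11 (SE) (limma adjusted p = 0.781), and −0.0084 without that library. For these 3 genes the value in APOE3 replicate 2 was above all 12 other libraries, whereas for Rps23, Rps27, Rps21 and Rps27a it was below all 12.

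Of the 16 genes for proteins of the body and platform, 14 had a log2 fold change above 0, 3 were called by limma, as by edgeR and by DESeq2, and the median was 0.30. After the 3 called genes came Rps3a1, of the platform near the messenger RNA exit, with 0.49 ± 0.16 (SE), Rps2, at the messenger RNA entry, with 0.47 ± 0.17 (SE), and Rps4x, the X-linked gene, with 0.46 ± 0.14 (SE). Limma adjusted p-values were 0.143, 0.212 and 0.132. These 3 genes had their lowest value in APOE3 replicate 2. Rps2 there had 2606 normalised counts, while its APOE2 libraries ran from 6599 to 8538 and the other 4 APOE3 libraries from 4916 to 7587. Without that library the log2 fold changes were 0.30, 0.21 and 0.30, each smaller by more than 1.5 times. Rps7 had 0.34 and Rps14, a gene lost in the 5q− form of myelodysplasia, 0.30. Rps6, the target of the S6 kinases, had the widest spread of the 28, with 275, 575 and 956 as lowest, median and highest normalised counts in APOE2 and 710.0, 186, 614, 307 and 655 in APOE3. Its log2 fold change of 0.29 ± 0.28 (SE) was not called (limma adjusted p = 0.678) and turned to −0.016 without APOE3 replicate 2. Rpsa, known also as the laminin receptor, had 0.11, Rps9 0.082, Rps24 0.061 and Rps26, at the messenger RNA exit, 0.025. Rps13 (−0.0086) and Rps15a (−0.020) lay below 0. Rps15a varied least among the APOE3 libraries, from 5417 to 5829 normalised counts. The limma adjusted p-values of Rps26, Rps13 and Rps15a were 0.949, 0.982 and 0.952.

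Split by origin, 13 genes have relatives in bacteria and 15 are found in archaea and eukaryotes or in eukaryotes alone. In the first set 10 of 13 had a log2 fold change above 0, 1 (Rps23) was called and the median was 0.18. In the second set 13 of 15 were above 0, 2 (Rps21 and Rps27) were called and the median was 0.29. The coefficient of variation between libraries had a median over the 28 genes of 15.3% in APOE2 and 16.8% in APOE3, and was larger in APOE3 for 18 of the 28. Counting alone, with each read taken as independent, gives 8.25% at the smallest count of reads.

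Other genes of the ribosome give the setting. Of the 47 genes of the large subunit 46 were tested, 39 had a log2 fold change above 0, and the median was 0.24. By limma 3 were called higher and 0 lower, against 0.411% and 0.379% of all genes. At an unadjusted p under 0.05, 22 of the 46 were higher and 0 lower, against 7.51% and 6.71% of all genes. EdgeR called 2 higher (0.492% of all genes) and DESeq2 8 (1.23%), with 0 lower by either. The called genes were Rpl35 (log2 fold change 0.96 ± 0.19 (SE), limma adjusted p = 0.0191), Rpl6 (0.65 ± 0.14 (SE), adjusted p = 0.0283) and Rpl35a (0.89 ± 0.21 (SE), adjusted p = 0.0421). In 3 of the 46 every APOE2 library exceeded every APOE3 library, against 0 of the 28 genes of the small subunit and 0.476% of all genes. With so low a share over all genes, these counts do not show a difference between the subunits. The library medians of the large subunit were lowest in APOE3 replicate 2 (−0.39) and highest in APOE2 replicate 1 (0.33), the same libraries as for the small subunit. Rps27l, the close relative of Rps27, had 5790.4 ± 895 normalised counts (SD) in APOE2 hosts against 4450.5 ± 1305 in APOE3 hosts, with a log2 fold change of 0.42 ± 0.15 (SE) (limma adjusted p = 0.211). Rack1, a scaffold protein of the head of the subunit, had 11315 ± 711 and 11158 ± 975 normalised counts (SD) and a log2 fold change of 0.022 ± 0.098 (SE) (limma adjusted p = 0.948), with 10918 in APOE3 replicate 2.

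Genes that assemble, use or control the subunit showed no calls by limma. For the unadjusted counts below, the shares over all genes were 7.51% higher and 6.71% lower. Of 37 assembly factors tested 0 were called (1 higher and 2 lower at an unadjusted p under 0.05, and 0 by edgeR or DESeq2), and the median log2 fold change was 0.096. The smallest p-values were those of Riok1, a kinase of late maturation (−0.52 ± 0.19 (SE), limma adjusted p = 0.209), and Dcaf13, of the early processome (0.32 ± 0.13 (SE), limma adjusted p = 0.262). Of 21 initiation factors that bind the subunit 0 were called (2 higher and 2 lower unadjusted, 0 by edgeR, and 1, Eif3d, lower by DESeq2) and the median was 0.090, with Eif3d at −0.41 ± 0.12 (SE) (limma adjusted p = 0.0991) and Eif2s3x at 0.68 ± 0.20 (SE) (limma adjusted p = 0.108). Of 15 genes that control messenger RNAs with the pyrimidine motif, 0 were called (1 higher and 0 lower unadjusted, and 0 by edgeR or DESeq2) and the median was −0.0047. Eif4ebp1, a repressor of cap-dependent translation, had 0.32 ± 0.14 (SE) and Akt1s1, an inhibitory subunit of an mTOR complex, −0.20 ± 0.13 (SE). Of 30 genes of the mitochondrial small subunit 0 were called (5 higher and 1 lower unadjusted, 0 by edgeR, and 1, Mrps24, higher by DESeq2) and the median was 0.13, led by Mrps21 at 0.85 ± 0.24 (SE) (limma adjusted p = 0.103) and Mrps24 at 0.35 ± 0.11 (SE) (limma adjusted p = 0.125).

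Genes of this family have many processed copies, and how reads shared between copies were counted is not given in the sources used here. In 25 of the 28, at least 1 stretch of 50 bases in the last 300 bases of the transcript also occurs in another annotated gene. Rps3, Rps15a and Rps20 had none. The share of such stretches was 100% for Rps27, 36.3% for Rps21 and 12.4% for Rps23, so the level of Rps27 is uncertain to that extent. Its listed relative Rps27rt, named after its values were seen, had 36.3 ± 11.3 and 47.4 ± 21.9 normalised counts (SD). Pseudogene rows named after 20 of the genes were in the table. Their counts came to 15.7% of those of Rps10 and 1.20% of those of Rps6, and were below 1% for the other 18. Adding them to their parent genes left 3 genes called and the median at 0.29. Strand is not stated either, and 6 genes overlap an annotated gene on the opposite strand: Rps2 (Snhg9), Rps10 (Gm15420), Rps18 (Vps52), Rps25 (Ccdc84 and Trappc4), Rps27a (Clhc1) and Rps28 (Kank3). Snhg9 had a mean of 2800 normalised counts, against 6674 for Rps2. The next highest, Trappc4, had 796, against 8202 for Rps25. On the same strand, 7 genes overlap an annotated gene. For Rps10 it is the readthrough gene RPS10-NUDT3. For Rpsa, Rps2, Rps3, Rps12, Rps13 and Rps20 these are small nucleolar RNA genes. Small nucleolar RNA genes lie inside 8 of the 28, whose median log2 fold change was 0.20, against 0.30 for the 20 without. Across the 28 genes, which share libraries and are not independent, Spearman's correlation of log2 fold change with transcript length was −0.20, with length of the annotated 3′ untranslated region −0.13, with GC content 0.022 and with the share of repeated stretches 0.22.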

How the data were processed

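The authors deposited 1 table of signal values, read counts per gene divided by a size factor for each library, for 22656 genes and 13 libraries. The submitters' processing notes name STAR 2.6.0, featureCounts, DESeq2 1.28.1 and mm10, with no role or order; the strand setting is not given in the sources used here. Whole reads were recovered from the steps of the values (100% of values whole within 0.01). Coordinates and overlaps came from GENCODE M21 (GRCm38). A mouse gene annotation gave symbols for 22649 of the 22656 identifiers.

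Groups were taken from the labelled genotype. Values were tested as log2(value + 1) with limma 3.58.1 (R 4.3.3, variance trend, two-sided, Benjamini-Hochberg) over 12403 genes with a mean of at least 10. The fit was run on simulated counts as a check of the code only. Those counts were drawn independently for each gene, so they do not bear on genes that move together by library. Alternatives were pseudocounts of 0.5 and 5, equal totals, TMM, no filter, a mean of at least 50, no trend, robust variance, each library left out, a replicate block, covariates, pseudogene rows added, and edgeR 4.0.16 and DESeq2 1.42.0 on recovered reads. Intervals from reads without molecular identifiers cover counting error only.

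Named with full values are genes past the threshold, the 3 highest and 3 lowest fold changes, and the fusions; in other lists, called genes or the 2 smallest p-values; and Rps27l, Rack1, Apoe and Gm42418. Members and lists were chosen with earlier results of these data known.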

Additional observations from a re-analysis of the deposited data

Results flagged for a closer look

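For 4 of the 28 genes a single library lay far from the rest of its group in normalised counts, by Dixon's criterion for the gap between the extreme library and its nearest neighbour. The 28 genes in 2 groups make 56 such screens, of which chance passes about 1 in 20, or 2.80. Rps12 had 16691 in APOE3 replicate 1, with the next library at 14194. Rps28 had 20846 in APOE3 replicate 4, with the next at 16515. Rps13 had 11902 in APOE2 replicate 2, with the next at 10675. Rps15 had 6426 in APOE2 replicate 1, with the next at 5017. In each case the library was the highest of its group, and none of the 4 genes was called by limma. For Rps15 the log2 fold change was −0.040 without that library, and for Rps13 −0.034.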

How the results depend on the processing

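The median log2 fold change of the 28 genes stayed above 0 in all 28 alternatives, from 0.16 with the log2 level of Gm42418 as a covariate to 0.35 with the replicate block, and no alternative called a gene lower. The count called higher (3) was 0 with no filter on low values (5 of 22656 genes called higher), with limma without the variance trend (0 of 12403), without APOE3 replicates 2 and 3 together and with the lung-epithelium markers or Gm42418 as covariates (1 in each), and 7 with DESeq2 (153), against 51 of all genes as reported. It was 2 with a pseudocount of 0.5 or equal totals (both without Rps21) and with robust variance (without Rps23). Leaving out 1 library gave 0 to 7, and calls over all genes fell or rose as well: 0 without APOE2 replicates 1, 2, 5 or 7 or APOE3 replicates 3 or 4 (22, 11, 18, 25, 5 and 21 of all genes called higher), 1 (Rps23) without APOE2 replicate 8 or APOE3 replicates 2 or 5 (29, 44 and 49), 2 without APOE2 replicate 3 (37), 3 without APOE2 replicate 4 (47), 4 without APOE2 replicate 6 (67) and 7 without APOE3 replicate 1 (131). Genes near 0 changed sign. With equal totals Rps15 had −0.012 and Rps26 −0.016, and with TMM Rps13 had 0.012 and Rps15a 0.00028. Without APOE3 replicates 2 and 3, Rps10 had 0.23, Rps13 0.076, Rps15 −0.11 and Rps25 0.018. With the lung-epithelium covariate Rps6 had −0.10, Rps10 0.13 and Rps19 −0.071, and with the Gm42418 covariate Rps6 −0.055, Rps10 0.21, Rps13 0.039, Rps15 −0.070 and Rps24 −0.020. Without 1 library in turn the ranges that crossed 0 were Rps6 from −0.016 to 0.46, Rps10 from −0.26 to 0.064, Rps13 from −0.056 to 0.066, Rps15 from −0.049 to 0.11, Rps15a from −0.050 to 0.012, Rps24 from −0.0035 to 0.12 and Rps26 from −0.025 to 0.080. The cause of these changes was not tested, beyond the fewer libraries or more genes tested where an alternative is built so. With the replicate number as a block, 1 gene (Rps23) was called, of 17 called higher in all. APOE2 replicates 6, 7 and 8 have no APOE3 library of their number, so they do not enter the genotype difference of that fit. In that fit Rps13 had 0.024 and Rps26 −0.010. After group means were removed, same-numbered libraries correlated at −0.063 to 0.014, and 0 of 5 correlated best with their own number. The labels give no batch, and these correlations cannot show whether equal numbers mark a shared one. Counting error, with each read taken as independent, is at most 8.25% for any value of the 28 genes. Without molecular identifiers that cannot be checked, and the error could be larger.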
